A study of Mus musculus with 28 samples.

Results

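The 4 libraries of dataset C, out of 28 libraries in the series, were the ones whose deposited tables gave the counts of each feature on the plus and on the minus strand. They hold RNA immunoprecipitated with the kinase PKR from lysates of mouse embryonic fibroblasts, 1 library for each of 4 groups. The cells had been reconstituted either with a PKR that carries a mutation in every motif for binding double-stranded RNA (RM) or with wild-type PKR (WT). The groups are RM with palmitate, RM with mock treatment, WT with palmitate, and WT with mock treatment. Palmitate was palmitic acid, a saturated fatty acid, at 0.1 mM. RNA was isolated with Trizol and fragmented before an Illumina small RNA library preparation in all groups. No input and no control precipitate is among the samples used here, so RNA abundance, binding and background cannot be told apart, and neither can fewer cells and less RNA per cell. With 1 library per group, differences in dataset C have no replicate check, no test was made on them, and the intervals given are 95% intervals that cover counting error only. Counts on the annotated strand of a feature are called sense and the others antisense. All 30210 features of the table were sorted into mitochondrial (37), snoRNA (1515), miRNA (1593), mRNA (20059) and other (7006) features.

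PKR binds double-stranded RNA and, when it is activated, phosphorylates the translation initiation factor eIF2α. Mitochondrial DNA is transcribed on both strands over nearly its whole length, into long RNAs that are cut at the tRNAs. In the mouse genome most mitochondrial genes are read as plus-strand RNA, and the minus-strand RNA carries mt-Nd6 and a few tRNAs. The rest of the minus-strand RNA is antisense to genes and is normally degraded. Pairing of the 2 strands gives mitochondrial double-stranded RNA, which is known to bind PKR. Nuclear genes are mostly transcribed from 1 strand, and antisense counts there commonly belong to a neighbouring gene on the other strand.

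The libraries held 11658726 counts on both strands in RM palmitate, 10109466 in RM mock, 7739939 in WT palmitate and 7462653 in WT mock. The 8 fibroblast markers were all counted in each library, and their summed sense level was 16665 CPM (counts per 1000000 counts of a library) in RM palmitate and 9548 CPM in RM mock, against 3079 CPM in WT palmitate and 1906 CPM in WT mock. The 15 markers of leukocytes, epithelium and endothelium summed to at most 6.58 CPM in any list and library, and Ptprc, Cd3e and Krt18 had 0 sense counts in all 4. Lars2, which encodes the mitochondrial leucyl-tRNA synthetase, had 812122 sense counts in RM palmitate, 685272 in RM mock, 997892 in WT palmitate and 1173435 in WT mock, and 0 antisense counts. Log2 ratios of RM over WT in CPM had a median over all features of 2.48 with palmitate and 2.52 with mock. The antisense share of a feature or class does not depend on this scaling.

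Mitochondrial RNA was the class in which the antisense share was high with WT and low with RM. It was 0.362% in RM palmitate (0.344 to 0.381%) and 0.277% in RM mock (0.261 to 0.295%), against 9.33% in WT palmitate (9.21 to 9.45%) and 12.02% in WT mock (11.9 to 12.1%). The WT share was 25.8 times the RM share with palmitate and 43.3 times with mock. The 2 mitochondrial ribosomal RNAs held most counts of the class and were almost all sense. Without them the antisense share was 2.92% in RM palmitate and 3.05% in RM mock, against 39.1% in WT palmitate and 42.7% in WT mock. The antisense share of mRNA was 1.25% in RM palmitate and 1.13% in RM mock, against 0.697% in WT palmitate and 0.462% in WT mock. That order was set by 1 gene, since without Lars2 the mRNA share was 1.48% in RM palmitate and 1.40% in RM mock, against 2.03% in WT palmitate and 1.8% in WT mock. Among mRNAs with no feature overlapping on the other strand it was 0.170% in RM palmitate and 0.267% in RM mock, against 0.148% in WT palmitate and 0.0997% in WT mock. Without Lars2 this order turned round too, at 0.211% in RM palmitate and 0.350% in RM mock, against 0.513% in WT palmitate and 0.468% in WT mock. That of miRNA features was 1.03% in RM palmitate and 0.305% in RM mock, against 0.0955% in WT palmitate and 0.0758% in WT mock. Features without a Mir symbol held 5567 of the 6005 miRNA antisense counts in RM palmitate. For miRNAs with a Mir symbol the share was 0.234% in RM palmitate and 0.262% in RM mock, against 0.151% in WT palmitate and 0.189% in WT mock. Small nucleolar RNAs (snoRNAs) were nearly all sense, with antisense shares of 0.00536% in RM palmitate and 0.00622% in RM mock, against 0.00264% in WT palmitate and 0.00271% in WT mock.

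**Figure D1:**
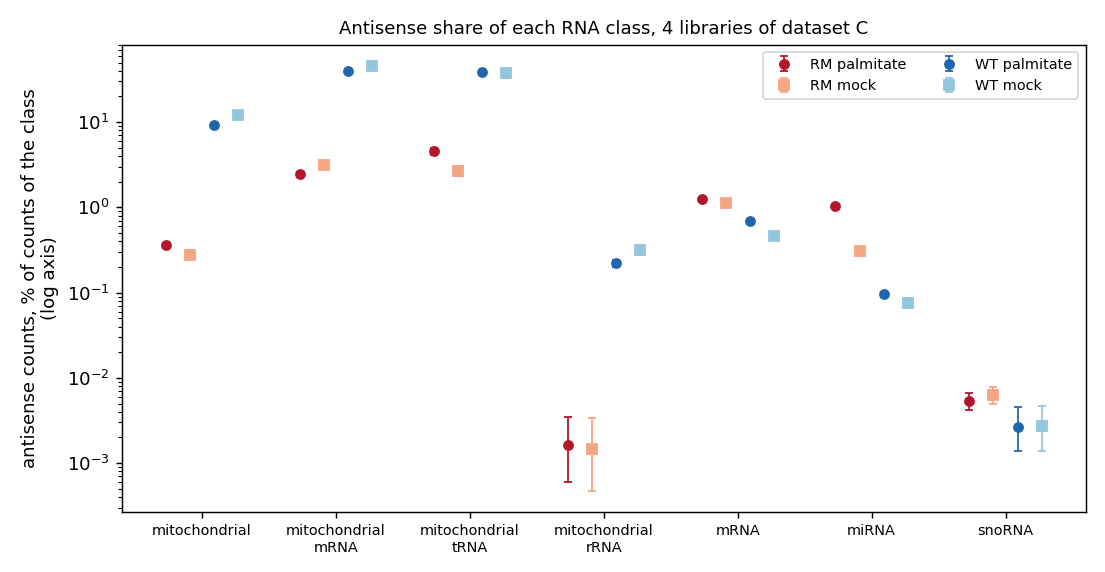
Antisense counts as a percentage of all counts of a class (log axis) in each of the 4 libraries of dataset C, with bars for 95% exact binomial intervals. Mitochondrial classes lie higher in WT than in RM libraries, from 9.33 to 12.02% against 0.277 to 0.362% for the whole class, while mRNA, miRNA and snoRNA lie lower in WT, an order that turns round for mRNA when Lars2 is left out.

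As a level in CPM, antisense RNA was lower in RM than in WT for mitochondrial features and higher in RM for nuclear features without overlap. Mitochondrial antisense counts amounted to 132 CPM in RM palmitate and 103 CPM in RM mock, against 2717 CPM in WT palmitate and 3989 CPM in WT mock. Nuclear features with no annotated feature overlapping on the other strand had 2345 antisense CPM in RM palmitate and 1645 in RM mock, against 591 in WT palmitate and 566 in WT mock. The log2 ratio of RM over WT of this nuclear antisense level was 1.99 with palmitate and 1.54 with mock in CPM. Scaled to the median of ratios, which centres the sense counts of all features, it was -0.28 and -0.85, so that the nuclear direction turned round, while the mitochondrial antisense ratio was -6.63 and -7.67. Mitochondrial sense counts without the ribosomal RNAs were far less apart, at 4360 CPM in RM palmitate and 3248 in RM mock, against 4163 in WT palmitate and 5251 in WT mock. The log2 ratio of RM over WT was 0.07 with palmitate and -0.69 with mock for these sense counts, and -4.35 and -5.26 for the antisense counts of the same 35 features.

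By gene, the antisense share was lower in RM than in WT for 34 of 37 mitochondrial features with palmitate and for 35 of 37 with mock. The intervals were apart in that direction for 29 and 32 of them. The exceptions with intervals apart in the other direction were the mRNA mt-Nd6 and the tRNA mt-Ts1. These are minus-strand members of overlapping pairs: mt-Nd6 shares 14 bases with mt-Nd5, and mt-Ts1 shares 3 bases with mt-Co1, so that sense counts of the plus-strand partner can enter their antisense counts. How far they do was not tested. In CPM the antisense counts of both genes were also lower in RM, and their sense counts were lower by more. For mt-Nd6 the antisense log2 ratio of RM over WT was -1.32 with palmitate and -2.08 with mock, and the sense ratio -3.44 and -3.82. For mt-Ts1 the antisense ratio was -1.92 with palmitate and -2.70 with mock, and the sense ratio -3.10 and -3.98. The minus-strand member of the remaining overlapping pair was no exception: mt-Tq, which shares 3 bases with mt-Ti, had antisense shares of 3.47% in RM palmitate and 4.04% in RM mock, against 15.5% in WT palmitate and 14.7% in WT mock. Over all 37 features, 8 had an antisense share of at least 10% in RM palmitate and 8 in RM mock, against 26 in WT palmitate and 28 in WT mock.

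Among the 13 mitochondrial mRNAs the highest antisense shares in WT libraries were those of mt-Nd3, mt-Nd4, mt-Nd4l and mt-Nd5, which encode subunits of complex I. For mt-Nd3 there were 16 antisense and 106 sense counts in RM palmitate and 20 and 88 in RM mock, against 861 and 64 in WT palmitate and 1305 and 72 in WT mock. The antisense share of mt-Nd3 was thus 13.1% in RM palmitate and 18.5% in RM mock, against 93.1% in WT palmitate and 94.8% in WT mock, while its sense counts lay between 64 and 106 in all 4 libraries. For mt-Nd4 the antisense share was 3.48% in RM palmitate and 4.74% in RM mock, against 72.3% in WT palmitate and 79.7% in WT mock. Its short neighbour mt-Nd4l, which overlaps it on the same strand, had 6.84% and 3.11% in the RM libraries with palmitate and mock, against 68.2% and 75.0% in the WT libraries. The most counted antisense gene was mt-Nd5, with 438 antisense counts in RM palmitate and 335 in RM mock, against 4684 in WT palmitate and 7262 in WT mock. Its antisense share was 30.2% in RM palmitate and 34.2% in RM mock, against 67.5% in WT palmitate and 72.4% in WT mock. In each of these genes both RM libraries lay below both WT libraries.

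The other mRNAs had lower WT shares than these 4 genes. The complex IV subunit mt-Co3 had 2.97% antisense in RM palmitate and 3.50% in RM mock, against 61.0% in WT palmitate and 65.5% in WT mock. For mt-Co2 the share was 0.303% in RM palmitate and 0.281% in RM mock, against 18.5% in WT palmitate and 22.9% in WT mock. The lowest WT shares among the mRNAs were those of mt-Co1, at 6.53% in WT palmitate and 7.56% in WT mock, and its RM shares were 0.232% with palmitate and 0.357% with mock. The ATP synthase subunit mt-Atp6 had 0.328% in RM palmitate and 1.14% in RM mock, against 26.3% in WT palmitate and 31.8% in WT mock. The complex III subunit mt-Cytb had 2.68% in RM palmitate and 2.75% in RM mock, against 18.6% in WT palmitate and 20.02% in WT mock. The complex I genes mt-Nd1 and mt-Nd2 are the first mRNA genes after the ribosomal RNAs in genome order. They had 29.8% and 35.8% in WT palmitate and 33.2% and 37.02% in WT mock, below mt-Co3. The complex I gene mt-Nd6, which lies on the minus strand, had 65.2% in RM palmitate and 54.9% in RM mock, against 29.9% in WT palmitate and 26.6% in WT mock. The ribosomal RNA mt-Rnr1 had no antisense count in either RM library, and 86 in WT palmitate and 142 in WT mock. Against 56372 and 57022 sense counts of mt-Rnr1 in these WT libraries the antisense share was 0.153% and 0.248%.

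**Figure D2:**
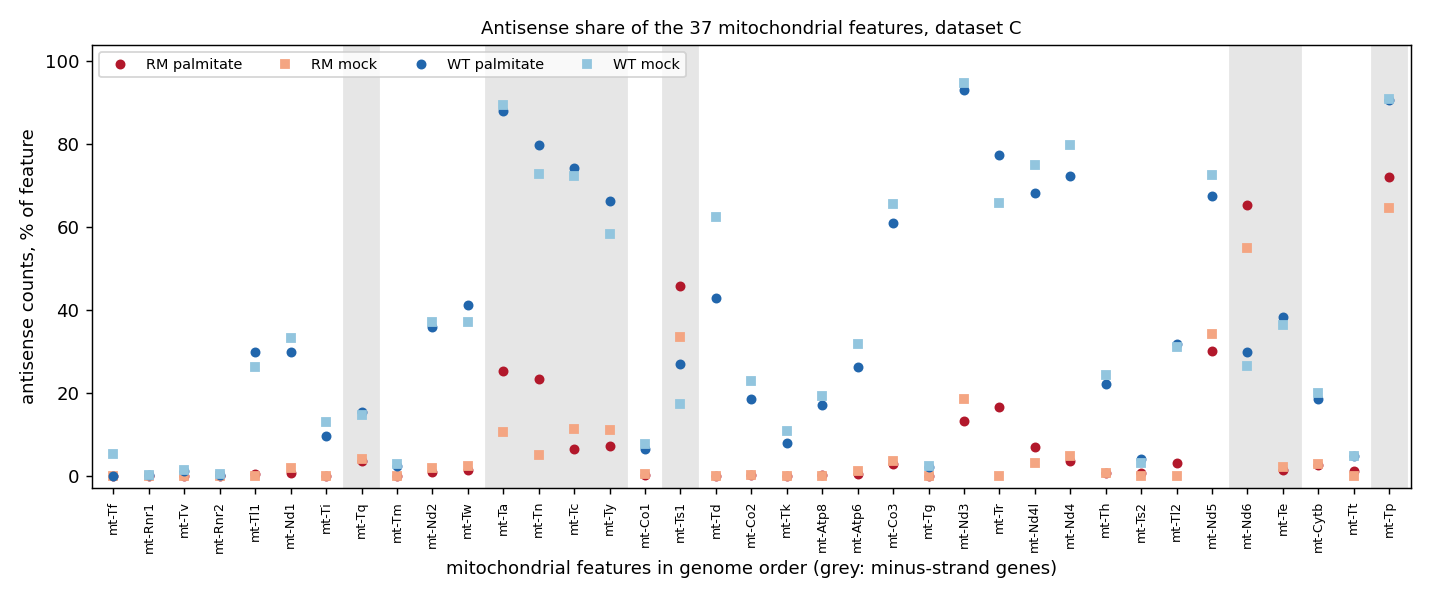
Antisense share of each of the 37 mitochondrial features, in genome order, in the 4 libraries of dataset C, with minus-strand genes on a grey ground. WT libraries lie above RM libraries at nearly all features, with mt-Nd3 at 93.1 and 94.8% in WT, and mt-Nd6 and mt-Ts1 are the features where RM lies clearly above WT.

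The tRNAs divided by their strand. The 8 tRNAs encoded on the minus strand had antisense shares of 1.42 to 72.1% in RM palmitate and 2.10 to 64.5% in RM mock, against 15.5 to 90.7% in WT palmitate and 14.7 to 91.0% in WT mock. Their antisense counts are plus-strand RNA, read from the strand that carries most genes. In the run of mt-Ta, mt-Tn, mt-Tc and mt-Ty, mt-Ta had the most antisense counts, with 78 antisense and 230 sense counts in RM palmitate and 31 and 260 in RM mock, against 2676 and 361 in WT palmitate and 3436 and 404 in WT mock. Of the 14 plus-strand tRNAs, 7 had any antisense count in RM palmitate and 2 in RM mock, against 13 in WT palmitate and 14 in WT mock. So antisense counts were present in both directions in each library, as minus-strand RNA over plus-strand genes and as plus-strand RNA over minus-strand genes. They were fewer in RM: 20 of 28 plus-strand features had any in RM palmitate and 14 in RM mock, against 27 in WT palmitate and 28 in WT mock. All 9 minus-strand features had some in each library.

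The proline tRNA mt-Tp, the last gene of the genome, was the only mitochondrial feature with a mean of at least 100 counts that was mostly antisense in all 4 libraries. It lies at chrM:15356-15422 on the minus strand (mm9) and shares no base with another feature. It had 225 antisense and 87 sense counts in RM palmitate, 80 and 44 in RM mock, 952 and 98 in WT palmitate, and 1460 and 145 in WT mock. The gene and its opposite strand are shown, since most counts came from the opposite strand (GENCODE M21 transcript, no capitals used).
mt-Tp: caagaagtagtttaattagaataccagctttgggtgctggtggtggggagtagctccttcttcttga
Opposite strand of mt-Tp: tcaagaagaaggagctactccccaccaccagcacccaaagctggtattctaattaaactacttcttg

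In CPM the genotypes differed more on the antisense than on the sense strand for the plus-strand mRNAs. For the 12 plus-strand mRNAs the median log2 ratio of RM over WT in CPM was 0.54 with palmitate (range -1.74 to 1.03) and -0.13 with mock (-2.53 to 0.35) on the sense strand. On the antisense strand the medians were -5.09 (-6.24 to -2.82) with palmitate and -5.54 (-7.03 to -3.36) with mock, which are 34.1-fold and 46.4-fold lower in RM. All 12 were at least 2-fold lower on the antisense strand in both treatments, and 1 of 12, mt-Nd5, was on the sense strand. On the antisense strand the 9 minus-strand genes were also at least 2-fold lower in RM, and on the sense strand 5 of 9 were with palmitate and 8 of 9 with mock. Their median sense ratio was -1.23 with palmitate and -2.13 with mock, and the gene with the lowest palmitate ratio was mt-Nd6, with 88 sense counts in RM palmitate and 87 in RM mock, against 643 in WT palmitate and 922 in WT mock. Under a scaling to the median of ratios, which centres nuclear features, every one of the 34 and 33 mitochondrial features that averaged at least 50 sense counts was also lower in RM on the sense strand by at least 2-fold. Beside these, 984 of 7931 features were at least 2-fold lower with palmitate and 1022 of 7107 with mock. Histone mRNAs were likewise nearly all lower, 43 of 45 with palmitate and 46 of 46 with mock. In CPM, 10 of the 12 plus-strand mRNAs were higher in RM on the sense strand with palmitate and 4 of 12 with mock, so for these the direction on the sense strand depends on the scaling. Over all features, 7654 of 7931 were higher in RM in CPM with palmitate and 6812 of 7107 with mock.

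**Figure D3:**
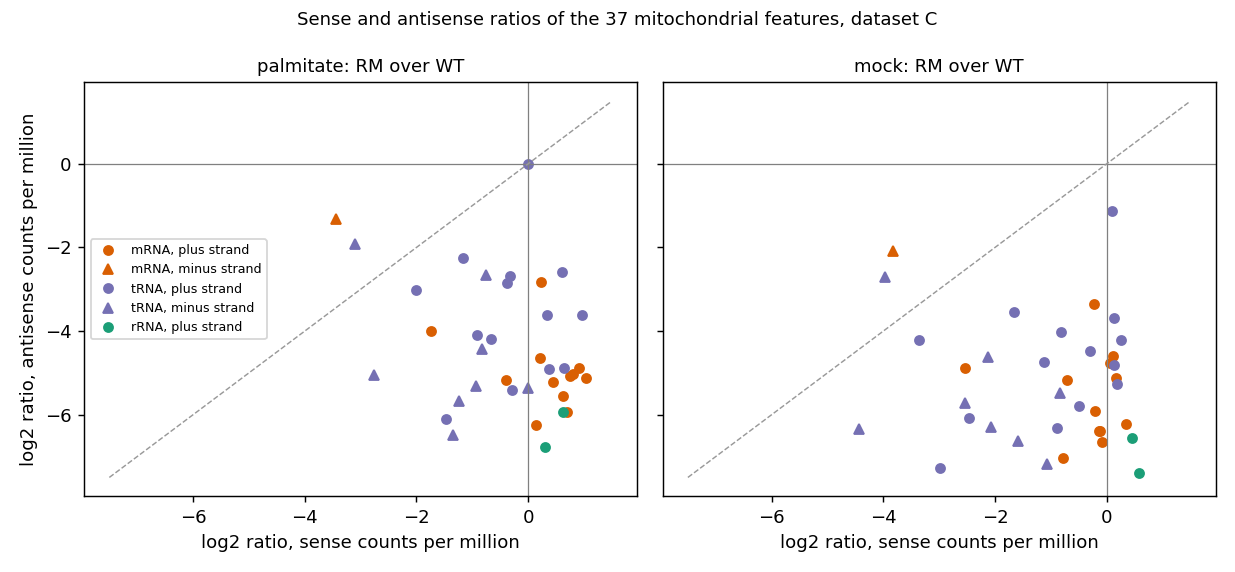
Log2 ratio of RM over WT for antisense (vertical) and sense (horizontal) CPM of the 37 mitochondrial features with a prior count of 1, for palmitate and for mock, 1 library per group. Nearly all points lie below the dashed line of equal ratios, with a median antisense ratio of -5.09 and -5.54 for the plus-strand mRNAs, and mt-Nd6 and mt-Ts1 lie above it.

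Palmitate was set against mock within each genotype. With WT, all 13 mitochondrial mRNAs were lower with palmitate on both strands, with a median log2 ratio of -0.28 for sense and -0.50 for antisense counts. The antisense share was lower with palmitate for 12 of the 13, with intervals apart for 6, and mt-Nd6 was the exception. With RM, 12 of 13 mRNAs had higher sense counts with palmitate, at a median log2 ratio of 0.42, and 9 of 13 had higher antisense counts, at a median of 0.13. None of the 13 was 2-fold apart on the sense strand in either genotype. Of all features that averaged at least 50 sense counts, 6663 of 9387 were higher with palmitate with RM. With WT 1941 of 2685 were, and the median over all features was 0.24 with each genotype. The RM antisense counts were few, at 1021 in RM palmitate and 806 in RM mock for all 13 mRNAs, against 14204 in WT palmitate and 20827 in WT mock. On the antisense strand the differences between treatments were small beside those between genotypes, whose median log2 ratios of RM over WT were -5.07 with palmitate and -5.17 with mock. On the sense strand the 2 kinds of difference were of similar size, with RM over WT medians of 0.45 with palmitate and -0.145 with mock. Without replicates none of these differences can be set against the spread of libraries.

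Datasets A and B, with 3 libraries in each of the same 4 groups, gave 1 count per feature without a strand. Columns of dataset B are marked 2hr without an explanation in the labels. Which strand was counted there is not given in the sources used here, but it can be read from features that had antisense counts alone in dataset C. There were 28 such features that averaged at least 100 counts, and their 58367 antisense counts in dataset C stood beside 218 counts in the 12 libraries of A and 186 in the 12 of B. In dataset A 27 of the 28 had at most 5 counts, as in dataset B. The tables of A and B therefore hold almost no antisense counts of these features, and counts of minus-strand genes there were read as minus-strand RNA. No mitochondrial feature was among the 28. The plus-strand mt-Ti, which overlaps mt-Tq, had 120, 256 and 365 CPM in WT palmitate of dataset A, against 6.10 sense CPM in dataset C. In the same dataset A libraries mt-Tq had 151, 365 and 475 CPM. Whether counts of overlapping mitochondrial genes are kept apart there was not tested.

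In dataset A all 9 minus-strand mitochondrial genes were lower in each RM mock library than in each WT mock library, beside 5.39% of all features at or over a mean of 10 counts. mt-Nd6 had 1.99, 4.16 and 4.38 CPM in RM mock, against 305, 220 and 162 CPM in WT mock. mt-Ts1 had 3.24, 1.76 and 2.39 CPM in RM mock, against 117, 132 and 94.5 CPM in WT mock. The groups do not overlap in either gene, and the median of the WT over RM ratios of the 9 genes was 7.97. Of the 25 plus-strand genes counted, 15 had that order, with a median ratio of 2.97. With palmitate 5 of the 9 minus-strand genes had all RM libraries below all WT libraries, beside 2.45% of features. That count was 9 of 9 without RM palmitate replicate 2, beside 3.49% of all features, and 8 of 9 without WT palmitate replicate 1, beside 7.91%. Leaving out a library can only raise such a count.

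In dataset B the difference was smaller. With mock 4 of 9 minus-strand genes had all RM below all WT libraries, beside 19.3% of features, and 8 of 9, beside 21.9% of features, without RM mock replicate 2. mt-Nd6 had 8.42, 15.2 and 15.4 CPM in RM mock, against 71.0, 28.9 and 34.9 CPM in WT mock, without overlap. With palmitate 3 of 8 had that order, beside 34.3% of features, which is near the background. For mt-Nd6 the values with palmitate were 18.3, 25.9 and 34.5 CPM in RM, against 39.0, 118 and 65.2 CPM in WT. The plus-strand genes of dataset B went the other way with palmitate: 18 of 24 had all RM libraries above all WT libraries, beside 5.25% of features, with a median WT over RM ratio of 0.249.

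**Figure D4:**
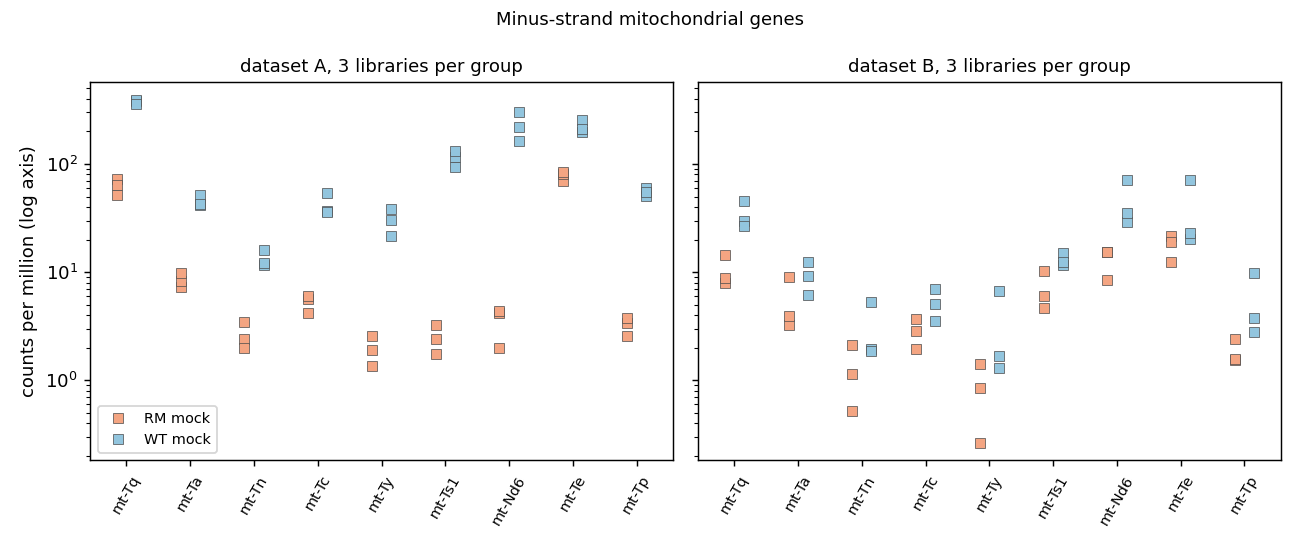
CPM (log axis) of the 9 minus-strand mitochondrial genes in the 3 RM mock and 3 WT mock libraries of datasets A and B, 1 point per library. In dataset A no gene has overlapping groups, and in dataset B mt-Tq, mt-Ts1, mt-Nd6 and mt-Tp have none.

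Features with mostly antisense counts in all 4 libraries were few, among mitochondrial and nuclear features alike. With a mean of at least 100 counts over the 4 libraries there were 5112 features, and 64 of them (1.25%) had an antisense share over 50% in every library. By class these were 1 of 32 mitochondrial, 0 of 189 snoRNA, 4 of 72 miRNA, 35 of 4315 mRNA and 24 of 504 other features. Of the 35 mRNAs, 29 overlapped a feature on the other strand, and 53 of all 64 did. No antisense count was seen in any library for 180 of the 189 snoRNAs, 63 of the 72 miRNAs and 2665 of the 4315 mRNAs, and for none of the 32 mitochondrial features. Over all features this was 3315 of 5112 (64.8%), so the mRNA share of 61.8% was near the background. At the limit of 50%, the lowest share among the 4 libraries was 64.5% for mt-Tp and 52.4% for Irak4 inside it, and 48.0% for Mrps25, 46.7% for Mir486 and 30.2% for mt-Nd5 outside it.

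The 4 miRNA features were Gm24083, Gm24111, Gm24321 and Gm25927, and each had antisense counts alone. miRNAs silence mRNAs by pairing through their seed, and let-7 miRNAs share 1 seed. Each feature's transcript (GENCODE M21) holds the reverse complement of a mature miRNA and not the miRNA itself, so reads of the miRNA fall on its antisense strand. These mature sequences (RefSeq, GRCm38.p6) are shown with the seed, bases 2 to 8, in capitals.
miR-191-5p, complement in Gm24083: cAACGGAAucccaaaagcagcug
let-7f-5p, complement in Gm24111: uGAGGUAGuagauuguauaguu
miR-409-3p, complement in Gm24321: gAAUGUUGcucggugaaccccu
let-7e-5p, complement in Gm25927: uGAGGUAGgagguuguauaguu
Gm24111, with the complement of let-7f-5p in capitals: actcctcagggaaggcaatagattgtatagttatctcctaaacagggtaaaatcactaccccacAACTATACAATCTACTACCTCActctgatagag

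Antisense counts of Gm24083 were 3521 in RM palmitate and 773 in RM mock, against 296 in WT palmitate and 230 in WT mock. Those of Gm24111 were 953 in RM palmitate and 273 in RM mock, against 142 in WT palmitate and 99 in WT mock. Gm24321 had 379 in RM palmitate and 95 in RM mock, against 66 in WT palmitate and 43 in WT mock. Gm25927 had 333 in RM palmitate and 86 in RM mock, against 40 in WT palmitate and 15 in WT mock. All 4 were highest in RM palmitate.

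The most counted antisense mRNA was Rtl1, an imprinted retrotransposon-like gene on chromosome 12. It had 16410 antisense and 32 sense counts in RM palmitate, 4156 and 16 in RM mock, 2807 and 3 in WT palmitate, and 1631 and 0 in WT mock. On the other strand lie 6 miRNA features, whose products are known to pair with the Rtl1 transcript. Their summed sense counts were 16231 in RM palmitate and 3902 in RM mock, against 2704 in WT palmitate and 1600 in WT mock, which is 97.7% of the antisense counts of Rtl1 over all 4 libraries. Mir127 held most of them, with 15374 in RM palmitate and 3717 in RM mock, against 2545 in WT palmitate and 1480 in WT mock. The reverse complements of miR-127-3p and of miR-434-3p were found in the Rtl1 transcript, and their sequences are shown with the seed in capitals.
miR-127-3p, GRCm38.p6 chr12:109592888-109592909, plus strand: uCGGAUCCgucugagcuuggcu
miR-434-3p, GRCm38.p6 chr12:109594565-109594586, plus strand: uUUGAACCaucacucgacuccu

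Other mRNAs of this kind lay opposite abundant genes. Tlcd1 had 9184 antisense and 125 sense counts over the 4 libraries and lies opposite the ribosomal protein gene Rpl23a with the snoRNAs Snord42a and Snord4a, whose summed sense counts were 9716. Gm20721 had 7558 antisense counts and none sense, opposite Gnas, a G protein subunit with 7750 sense counts. Acat3, a thiolase, had 2219 antisense and 417 sense counts opposite Tcp1, a chaperonin subunit, and Taf10, a TFIID subunit, had 1614 and 178 opposite Ilk, a kinase of integrin signalling. Among the mRNAs with no overlapping feature the most counted were Gm5148 with 1048 antisense and 3 sense counts, the cystine transporter Slc7a11 with 866 and 61, and Gm10800 with 767 and 13. For Slc7a11 the antisense counts were 497 in RM palmitate and 220 in RM mock, against 79 in WT palmitate and 70 in WT mock.

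Counts on both strands, with at least 10% on the minor strand in all 4 libraries, were found for 60 of the 5112 features (1.17%). They were 4 of 32 mitochondrial, 0 of 189 snoRNA, 1 of 72 miRNA and 53 of 4315 mRNA features, and 49 of the 53 mRNAs overlapped a feature on the other strand. The miRNA was Mir486, with 297 antisense and 321 sense counts in RM palmitate, 84 and 67 in RM mock, 21 and 24 in WT palmitate, and 19 and 17 in WT mock. Its transcript is shown because it reads alike on both strands: arms of 22 bases, in capitals, are exact reverse complements of each other, so that a read of an arm fits both strands.
Mir486, mouse chromosome 8: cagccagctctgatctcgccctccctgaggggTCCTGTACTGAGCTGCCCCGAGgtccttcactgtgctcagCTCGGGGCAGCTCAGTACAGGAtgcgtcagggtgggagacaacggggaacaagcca

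An antisense share of at least 10% in both WT libraries and under 10% in both RM libraries was found for 27 features (0.528%), and the reverse for 5 (0.0978%), a comparison chosen after the values were seen. Of the 27, 15 were among the 32 mitochondrial features that averaged at least 100 counts, 10 were mRNAs and 2 were nuclear features labelled as other. Those 2, Gm10222 and Gm10925 on chromosome 1, had antisense shares of 8.09% and 0.366% in RM palmitate and 4.94% and 0.597% in RM mock, against 67.6% and 25.3% in WT palmitate and 72.4% and 30.1% in WT mock. Their values were near those of mt-Nd4l and mt-Atp6. Whether the counts of Gm10222 and Gm10925 came from mitochondrial reads was not tested. Among the 10 mRNAs the casein kinase gene Csnk1a1 stood out, with 64 antisense and 1808 sense counts in RM palmitate, 54 and 918 in RM mock, 82 and 150 in WT palmitate, and 82 and 79 in WT mock. The antisense level of Csnk1a1 was 5.49 CPM in RM palmitate and 5.34 CPM in RM mock, against 10.6 CPM in WT palmitate and 10.99 CPM in WT mock, and the lower sense counts in WT also moved the share. The other 9 mRNAs had at most 12 antisense counts in a WT library. All 5 features of the reverse kind, Thra, Hacd4, Mmp19, Tubgcp4 and Hbp1, were mRNAs that overlap a feature on the other strand.

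The snoRNAs guide chemical modification of ribosomal and other RNAs, C/D box snoRNAs for methylation and H/ACA box snoRNAs for pseudouridylation. The 72 C/D box features had 0 antisense counts among 147422 in RM palmitate, which allows a share of up to 0.00203%, and 1 beside 70093 sense counts in RM mock. In WT palmitate they had 0 among 16675, which allows up to 0.018%, and in WT mock 0 among 8402, which allows up to 0.0357%. The 38 H/ACA features had 1 antisense count in each RM library and 0 in each WT library. The most counted snoRNA features were 4 on chromosome 11 with nearly equal counts, ENSMUSG00000070243 and 3 others, which may share reads and are uncertain, followed by the U3 snoRNA Rnu3a. Rnu3a had 84537 sense counts in RM palmitate and 84088 in RM mock, against 36701 in WT palmitate and 36244 in WT mock, and 0 antisense counts.

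The snoRNAs of the Rpl13a gene, whose release from the host introns is linked to lipid stress in earlier work, were sense in every library. Snord32a had 914 sense counts in RM palmitate and 664 in RM mock, against 151 in WT palmitate and 67 in WT mock. Snord33 had 432 and 534 in RM with palmitate and mock, against 155 and 65 in WT. Snord34 had 428 and 288 in RM, against 75 and 49 in WT. Snord35a had 453 and 547 in RM, against 115 and 64 in WT. Palmitate over mock, the log2 ratio of CPM was 0.26, -0.51, 0.37 and -0.47 for Snord32a, Snord33, Snord34 and Snord35a with RM, and 1.11, 1.19, 0.55 and 0.78 with WT. Beside these, the median over all features was 0.24 with each genotype. The median of the C/D box snoRNAs that averaged at least 50 sense counts was 0.21 with RM and 0.94 with WT. That of the 4 Rpl13a snoRNAs was -0.11 with RM and 0.94 with WT, so with WT they did not differ from their class. Scaled to the median of ratios, 0 of the 4 were at least 2-fold apart with either genotype. Their sequences are shown with the letters TGATG of the C box in the first 20 bases and CTGA of the D box in the last 20 bases in capitals. Both were found on the transcribed strand in 86.7% of the 98 Snord transcripts in GENCODE M21 and in 0 of 42 Snora transcripts. All 4 lie on chromosome 7, minus strand.
Snord32a: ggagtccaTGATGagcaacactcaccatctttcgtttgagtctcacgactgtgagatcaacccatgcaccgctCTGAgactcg
Snord33: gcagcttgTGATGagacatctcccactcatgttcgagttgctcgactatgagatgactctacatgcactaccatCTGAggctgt
Snord34: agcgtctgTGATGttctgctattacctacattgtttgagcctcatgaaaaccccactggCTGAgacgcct
Snord35a: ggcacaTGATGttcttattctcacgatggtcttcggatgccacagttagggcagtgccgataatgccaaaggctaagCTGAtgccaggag

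On the sense strand, palmitate was compared with mock among features that averaged at least 50 sense counts in the pair of libraries. With RM 463 of 9387 features were at least 2-fold higher with palmitate (4.93%) and 247 at least 2-fold lower (2.63%). With WT these were 205 (7.64%) and 54 (2.01%) of 2685. Scaled to the median of ratios, 268 were higher and 331 lower with RM, and 66 higher and 102 lower with WT, so more features were lower than higher. miRNAs with a Mir symbol differed most from this background with RM: 78 of 91 were at least 2-fold higher, with a median log2 ratio of 1.57, while with WT 4 of 49 were, with a median of 0.32. Mir10b, the most counted of them, had 42401 sense counts in RM palmitate and 13304 in RM mock, against 6465 in WT palmitate and 5971 in WT mock. H/ACA box snoRNAs were lower with palmitate in 36 of 37 cases with RM, 15 of them at least 2-fold, at a median of -0.92. Beside these, 2724 of 9387 features were lower with RM. With WT 20 of 26 were higher, at a median of 0.30, which is near the background of 1941 of 2685 features at a median of 0.24. C/D box snoRNAs had medians of 0.21 with RM, where 9 of 65 were at least 2-fold higher and 1 at least 2-fold lower, and of 0.94 with WT, where 17 of 44 were at least 2-fold higher and 0 lower. Scaled to the median of ratios, the C/D median was 0.03 with RM, where 5 of 65 were at least 2-fold higher, and 0.64 with WT, where 3 of 44 were, and the H/ACA median with WT was 0.01.

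**Figure D5:**
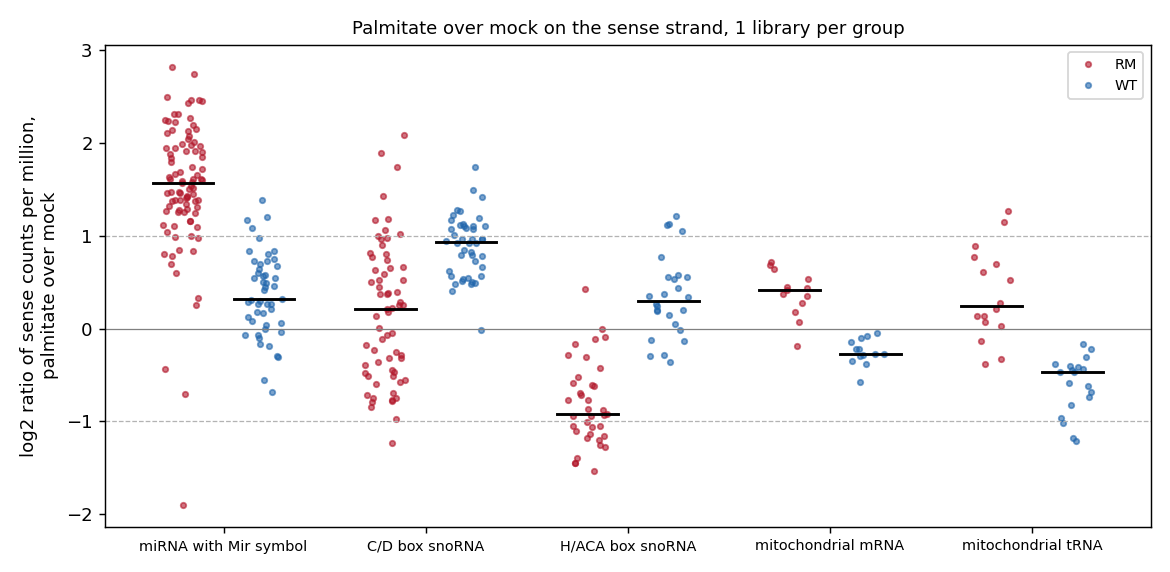
Log2 ratio of palmitate over mock in sense CPM for RM and WT, 1 point per feature with a mean of at least 50 sense counts in the pair, with the median as a black bar and dashed lines at 2-fold. miRNAs with RM have a median of 1.57 and H/ACA box snoRNAs with RM a median of -0.92, against 0.32 and 0.30 with WT. The median over all features was 0.24 with each genotype.

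The replicated datasets show how far such class shares vary between libraries of 1 group. miRNAs with a Mir symbol took 1.61% of sense counts in RM palmitate, 0.538% in RM mock, 0.386% in WT palmitate and 0.306% in WT mock of dataset C. In dataset A their share was 3.11 to 7.43% in RM palmitate and 2.25 to 5.74% in RM mock, and 1.81 to 4.19% in WT palmitate and 2.25 to 2.93% in WT mock. The treatments overlap within each genotype there. In dataset B the share was 0.767 to 1.999% in RM palmitate and 0.517 to 0.899% in RM mock, and 0.328 to 0.496% in WT palmitate and 0.376 to 4.17% in WT mock, again with overlap. H/ACA box snoRNAs took 0.151% in RM palmitate and 0.253% in RM mock of dataset C, against 0.235 to 0.317% and 0.283 to 0.419% in dataset A and 0.286 to 0.345% and 0.274 to 0.292% in dataset B. Treatments overlapped for H/ACA box snoRNAs in RM in both replicated datasets. With WT these snoRNAs took 0.065% with palmitate and 0.0501% with mock of dataset C. In dataset A they took 0.145 to 0.424% in WT palmitate and 0.187 to 0.238% in WT mock, with overlap. In dataset B they took 0.236 to 0.368% in WT palmitate and 0.100 to 0.122% in WT mock, without overlap. C/D box snoRNAs took 1.28% in RM palmitate and 0.698% in RM mock of dataset C. In dataset A the order was reversed without overlap, at 3.08 to 11.07% in RM palmitate and 11.33 to 19.82% in RM mock. In dataset B the RM treatments overlapped, at 0.961 to 1.27% and 0.880 to 1.28%. With WT they took 0.216% with palmitate and 0.113% with mock of dataset C, and the treatments overlapped in datasets A and B.

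Single features past 2-fold in the same direction in both genotypes were 128 higher and 3 lower with palmitate, of 7583 features that averaged at least 50 sense counts over all 4 libraries. Among mRNAs 112 of 6494 were higher and 1 lower. Among the highest ratios were those of Ccn2, a matrix protein induced by stretch and growth factors, and Angptl4, a fatty acid-induced inhibitor of lipoprotein lipase. Ccn2 had 721 sense counts in RM palmitate and 50 in RM mock, against 119 in WT palmitate and 3 in WT mock, log2 ratios of 3.62 (3.23 to 4.09) with RM and 4.86 (3.67 to 7.55) with WT. Angptl4 had 776 and 79 with RM, palmitate and mock, against 66 and 8 with WT, log2 ratios of 3.08 (2.76 to 3.45) and 2.85 (1.93 to 4.26). The orphan nuclear receptor Nr4a1 had 322 and 44 with RM, against 37 and 4 with WT. The 1 mRNA at least 2-fold lower in both was Osr2, a zinc-finger transcription factor, with 101 and 217 with RM, against 21 and 61 with WT. None of these genes had more than 2 antisense counts in a library.

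Among small RNAs 9 of 251 snoRNAs and 6 of 92 miRNAs were at least 2-fold higher with palmitate in both genotypes, and none was 2-fold lower in both. In opposite directions, 8 of the 251 snoRNAs were at least 2-fold lower with RM and at least 2-fold higher with WT, out of 9 such features in all. The C/D box snoRNA Snord12 had 26560 sense counts in RM palmitate and 5421 in RM mock, against 760 in WT palmitate and 347 in WT mock, log2 ratios of 2.09 (2.05 to 2.13) with RM and 1.08 (0.89 to 1.26) with WT. Mirlet7a-2 had 866 and 137 with RM, palmitate and mock, against 102 and 37 with WT, log2 ratios of 2.45 (2.20 to 2.73) and 1.39 (0.85 to 1.99). The nuclear long noncoding RNA Malat1 went opposite ways, with 8772 sense counts in RM palmitate and 17563 in RM mock, against 4349 in WT palmitate and 1673 in WT mock. Its log2 ratio of palmitate over mock was -1.20 (-1.24 to -1.17) with RM and 1.32 (1.24 to 1.41) with WT, and that of Neat1 was -0.81 and 1.27. Whether these differences exceed the spread of replicates cannot be told from dataset C.

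Between genotypes, 7168 of 7931 features (90.4%) were at least 2-fold higher in RM with palmitate and 6399 of 7107 (90%) with mock, and 123 (1.55%) and 58 (0.816%) were at least 2-fold lower. Scaled to the median of ratios, 762 were at least 2-fold higher and 984 lower with palmitate, and 620 higher and 1022 lower with mock. Mitochondrial features made up 8 of those lower with palmitate and 13 of those lower with mock, out of 34 and 33. Relative to the median of all features the mitochondrial mRNAs were lower in RM by a log2 of -2.02 with palmitate and -2.66 with mock, and the histone mRNAs by -2.06 and -1.98. Cytoplasmic ribosomal protein mRNAs were lower than the median by -1.17 and -1.13, and the interferon-stimulated genes were above it by 0.32 and 0.27, with 7 and 5 of 20 counted well enough. The PKR transcript itself, Eif2ak2, had 69 sense counts in RM palmitate and 106 in RM mock, against 12 in WT palmitate and 14 in WT mock, and its count does not tell the mutated from the wild-type form.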

How the data were processed

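The deposited tables of dataset C hold raw counts per feature on the plus and on the minus strand, and those of datasets A and B 1 raw count per feature and library, per the file headers. Reads were processed with CASAVA 1.7.0 and 1.8.2 and Novoalign against mm9, per the submitters' processing notes; the counting program is not given in the sources used here. In each table of dataset C the headers mark palmitate and mock, and the genotype was taken from the table's name. Scripts used 32 columns, and 52 other columns of per-sample values were not used. A read over overlapping features may count for each of them, and near-identical features may share reads.

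Counts were turned to sense and antisense by the strand of the feature. Names and biotypes came from GENCODE M21, which held 25773 of 29777 Ensembl IDs, and mature miRNAs from RefSeq. CPM of sense levels of features used the sense total of the library, and that of antisense and class levels all its counts. Log2 ratios of features used a prior count of 1 and features with a mean of at least 50 sense counts in the pair; 2-fold was the limit for counting features. Intervals are 95% exact (Clopper-Pearson) binomial intervals, and the limit for a count of 0 is 3 counts; they cover counting error only, since reads without molecular identifiers are not independent molecules. With 1 library per group no test was made. In datasets A and B a feature with a mean of at least 10 counts was counted where no RM library overlapped a WT library; whether their replicates came from separate cultures is stated only as biological replicates. The steps were tested on simulated data. Calculations used Python 3.11.15, pandas 2.3.3 and scipy 1.17.1.

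Features were named by a rule: per class the 5 most counted, the 5 most counted that were mostly antisense and 3 of those without overlap, the 3 highest and 3 lowest ratios in the same direction past 2-fold in both genotypes or treatments, and a short list of genes with the mitochondrial mRNAs and rRNAs. The members and lists were chosen with earlier results of these data known. Other features are named where a count was small, after their values were seen. Some features that the rule names are not reported here.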

Additional observations from a re-analysis of the deposited data

Results flagged for a closer look

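Several values differed in direction between the genotypes when palmitate was set against mock in dataset C; with 1 library per group these differences were not tested. The mitochondrial antisense share, palmitate minus mock, was 0.0850 percentage points with RM and -2.69 percentage points with WT. Without the 2 mitochondrial rRNAs it was -0.129 with RM and -3.63 with WT. The RM intervals overlapped there, at 2.78 to 3.07% with palmitate and 2.87 to 3.24% with mock. For the mitochondrial mRNAs alone the difference was -0.689 with RM and -5.85 with WT, so the opposite directions were not seen once the rRNAs were left out. The log2 ratio of the share of counts that were sense snoRNA, palmitate over mock, was -0.086 with RM and 0.10 with WT. For sense miRNA this log2 ratio was -0.10 with RM and 0.030 with WT. For sense mRNA it was 0.33 with RM and -0.11 with WT. Without the 10 features over 1% of all counts these log2 ratios were 0.18 with RM and 0.24 with WT for snoRNA, 0.53 and -0.065 for miRNA, and 0.33 and 0.24 for mRNA, so that snoRNA and mRNA were higher with palmitate in both genotypes and miRNA changed sign in both. With all features of a class kept, counting error is small beside these values, while the RM difference without the rRNAs lies within it. The spread between libraries of a group is unknown in dataset C.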

How the results depend on the processing

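Of 113 values under other settings, 45 kept their direction and size, 63 moved and 5 reversed; for those that moved or reversed the cause was not tested unless the setting itself shows it. Values are given for RM palmitate and RM mock, against WT palmitate and WT mock. Over features without overlap on the other strand, antisense shares were 0.186% and 0.134%, against 7.17% and 9.28% (mitochondrial); 0.000682% and 0.00108%, against 0% and 0.00094% (snoRNA); 0.948% and 0.247%, against 0.0781% and 0.0619% (miRNA); and 0.170% and 0.267%, against 0.148% and 0.0997% (mRNA). Without the most counted feature of the class they were 0.979% and 0.693%, against 19.0% and 23.4% (mitochondrial), 1.92% and 0.753%, against 0.270% and 0.202% (miRNA), and 1.48% and 1.40%, against 2.03% and 1.8% (mRNA, without Lars2). Without the 2 mitochondrial rRNAs, a setting added after seeing the data, they were 2.92% and 3.05%, against 39.1% and 42.7%. The mitochondrial order of RM below WT held under each of these settings.

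With a limit of 80% the number of mostly antisense features was 0 mitochondrial and 23 mRNA, and with a minimum mean of 20 counts it was 8 miRNA and 93 mRNA. With at least 20% on the minor strand, 2 mitochondrial and 30 mRNA features remained above the limit. Scaled to the median of ratios, which shifts log2 ratios by -0.18 (RM) and -0.29 (WT) for palmitate over mock and by -2.24 (palmitate) and -2.36 (mock) for RM over WT, the 2-fold counts for palmitate over mock were 268 higher with RM, and 66 higher and 102 lower with WT. For RM over WT they were 762 higher and 984 lower with palmitate, and 620 higher and 1022 lower with mock. With a minimum mean of 20 sense counts, 385 features were lower with RM, and 449 higher and 82 lower with WT, palmitate over mock.

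Without the 10 features over 1% of all counts, log2 ratios of class shares of sense counts were as follows. Palmitate over mock gave -0.21 with RM and -0.24 with WT for mitochondrial RNA, 0.18 (reversed) and 0.24 for snoRNA, 0.53 and -0.065 (both reversed) for miRNA, and 0.33 and 0.24 (WT reversed) for mRNA. RM over WT gave 0.0048 with palmitate and -0.032 with mock (mock reversed) for mitochondrial RNA, 1.37 and 1.43 for snoRNA, -0.027 and -0.62 for miRNA, and 2.30 and 2.21 for mRNA.

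Leaving out each replicate of datasets A and B in turn, settings added after seeing the data, the number of minus-strand mitochondrial genes with RM below WT ranged from 5 to 9 (A, palmitate), 9 to 9 (A, mock), 3 to 4 (B, palmitate) and 4 to 8 (B, mock); it was 9 without RM palmitate replicate 2 and 8 without WT palmitate replicate 1 of A, and 8 without RM mock replicate 2 of B. Without RM palmitate replicates 2 and 3 of B, which leaves 1 RM library, it was 5, beside 42.1% of features. Such counts can only rise as libraries are left out. No paired analysis was possible because no result here comes from a test: dataset C has 1 library per group, and datasets A and B were described only by whether groups overlap. Antisense counts of all mitochondrial features were 1535 in RM palmitate and 1038 in RM mock, which limits the precision of single genes there.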
